A study of Mus musculus with 12 samples.

Results

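Cholesterol synthesis, uptake and transport are represented by 29 genes, chosen by name from the known pathway with earlier results of these data known. They are 19 enzymes of synthesis, 4 proteins of sterol sensing, 4 proteins of transport within the cell and esterification, and 2 efflux transporters. All 29 had a probe among the 20887 genes that could be named on the array, and the brightest probe of each gene was used. Their expression was measured in gonadal white adipose tissue of male C57BL/6N mice aged 59 to 67 days. The 4 genotypes were DKO (Gadd45a-/-;Ing1-/-), Ing1-KO (Ing1-/-), Gadd45a-KO (Gadd45a-/-) and wild type (WT). Each genotype had 3 one-colour arrays, and each array held RNA pooled from 3 animals, so that 9 animals stand behind a genotype and differences between single animals are averaged within a pool. The GADD45A protein is induced by stress and takes part in the repair and the demethylation of DNA, and the ING1 protein reads methylation of histone H3.

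Cells make cholesterol from acetyl-CoA through mevalonate, farnesyl diphosphate, squalene and lanosterol. When sterols are scarce in the endoplasmic reticulum, the SCAP protein carries SREBP-2 to the Golgi, where it is cut and released as a transcription factor for nearly every enzyme of the pathway. When sterols are plentiful, the INSIG proteins hold SCAP back, oxysterols activate the LXR receptors, and these raise the efflux transporters ABCA1 and ABCG1. White adipocytes make little cholesterol compared with liver but store much of it, largely unesterified, in the lipid droplet.

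Promoters are shown for 7 of the 10 members that passed in DKO against Gadd45a-KO (Fdft1, Sqle and Abcg1 had no window), because SREBP-2 is known to act on this pathway together with NF-Y, which binds the CCAAT box, and with Sp1. In RefSeq's windows of 250 bases before to 50 after each start (GRCm38.p6), 23 of the 29 members matched, with 29 windows. Exact letters were searched on both strands. The CCAAT box was found in 20 of the 23 members and in 20 of their 29 windows (69.0%), against 37.4% of all 32851 windows. The Sp1 box GGGCGG was found in 21 members and in 24 of their windows (82.8%), against 35.7% of all windows. The E-box CACGTG, the palindrome bound by basic helix-loop-helix factors, was found in 6 members and in 7 of their windows (24.1%), against 7.15% of all. The shorter sterol regulatory element CACCCCAC was found in 2 members, Hmgcs1 and Acat2, in 6.90% of member windows against 2.87% of all. A longer form of that element was found in 0 members and in 0.234% of all windows. These are matches of letters and not measured binding. The windows of all genes were not matched to those of the members in base composition or expression, and some members have more than 1 window. The stretches below are the bases before the start, 250 for Hmgcs1 and 100 for the others, read along the gene, with capitals marking CCAAT, its reverse complement ATTGG and CACCCCAC.
Hmgcs1, chr13:119690101-119690350, forward strand: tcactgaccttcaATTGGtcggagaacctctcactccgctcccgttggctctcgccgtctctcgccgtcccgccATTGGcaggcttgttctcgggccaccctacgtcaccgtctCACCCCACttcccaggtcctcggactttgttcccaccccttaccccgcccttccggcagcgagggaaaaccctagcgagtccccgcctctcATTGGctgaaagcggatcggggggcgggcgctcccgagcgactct
Mvk, chr5:114444169-114444268, forward strand: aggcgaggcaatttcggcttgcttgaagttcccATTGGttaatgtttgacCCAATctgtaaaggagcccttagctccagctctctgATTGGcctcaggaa
Idi1, chr13:8885506-8885605, forward strand: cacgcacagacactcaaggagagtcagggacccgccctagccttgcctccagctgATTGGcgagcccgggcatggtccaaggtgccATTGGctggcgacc
Lss, chr10:76531505-76531604, forward strand: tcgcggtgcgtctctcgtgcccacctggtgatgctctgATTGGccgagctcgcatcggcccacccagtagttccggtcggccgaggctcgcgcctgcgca
Cyp51, chr5:4104698-4104797, reverse strand: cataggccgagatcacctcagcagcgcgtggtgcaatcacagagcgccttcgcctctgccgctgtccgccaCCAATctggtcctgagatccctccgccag
Hsd17b7, chr1:169969206-169969305, reverse strand: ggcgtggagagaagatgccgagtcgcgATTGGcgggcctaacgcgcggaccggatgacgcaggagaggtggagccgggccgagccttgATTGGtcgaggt
Soat1, chr1:156474329-156474428, reverse strand: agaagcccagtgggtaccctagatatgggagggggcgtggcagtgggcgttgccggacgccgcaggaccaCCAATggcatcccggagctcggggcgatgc
Within the last 100 bases before the start, Mvk has 3 CCAAT boxes, Idi1 and Hsd17b7 have 2, and Hmgcs1, Lss and Cyp51 have 1. Soat1, which moved the other way, also has 1.

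Levels are given as log2 of the processed signal after every array was shifted to the same 75th percentile. The median processed signal lay between 39.3 and 68.8 intensity units per array, and between 58.2% and 68.1% of spots were well above background, with WT replicate 2 lowest in both. All 9 white adipocyte markers tested were well above background on all 12 arrays. Ing1 averaged 9.32 ± 0.25 in DKO and 9.40 ± 0.13 in Ing1-KO, against 12.55 ± 0.21 in Gadd45a-KO and 12.46 ± 0.03 in WT (SD, n = 3 each). The Gadd45a probe was higher in arrays labelled with its loss, at 10.61 ± 0.01 in DKO and 10.17 ± 0.11 in Gadd45a-KO, whereas it averaged 9.20 ± 0.12 in Ing1-KO and 9.51 ± 0.25 in WT (SD, n = 3 each). Whether that probe lies in the deleted part was not given in the sources used here, so the loss of Gadd45a rests on the labels alone in every comparison below. On the first replicate of DKO, Ing1-KO and Gadd45a-KO, skeletal muscle transcripts stood 2.15, 4.24 and 1.46 above the mean over arrays on the log2 scale. Replicate numbers 1, 2 and 3 are also the slides, and every slide holds 1 array per genotype.

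Of the 29 members, 27 entered the fit on 12 arrays, and all 27 were well above background on every array. Msmo1 and Sc5d each had a spot marked by the scanner software on 1 array, WT replicate 1 for Msmo1 and Ing1-KO replicate 3 for Sc5d. They were fitted on the other 11 arrays and stand outside the counts below. "Rose" and "fell" are used for members with an adjusted p under 0.05 in limma, adjusted over all 31453 genes or unnamed probes tested.

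**Figure D1:**
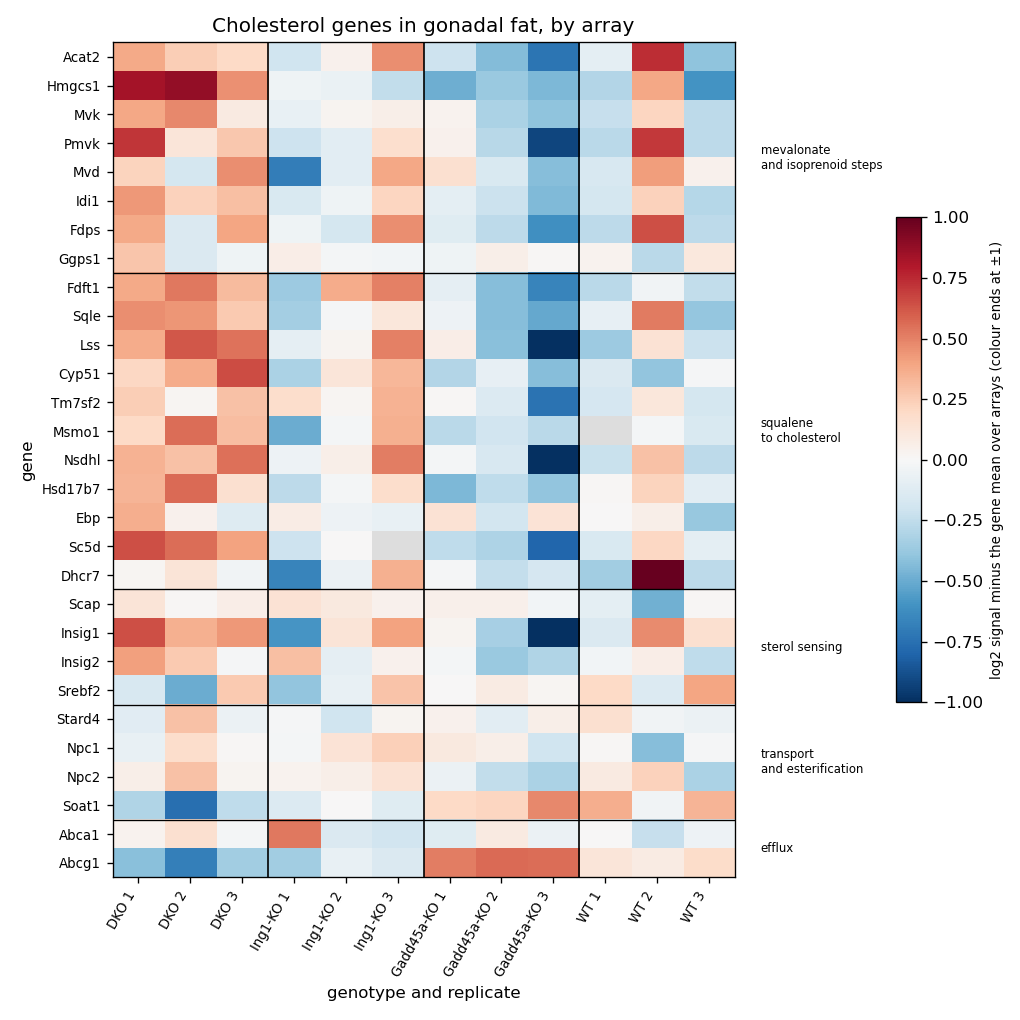
Level of each of the 29 members (rows, by role) on each of the 12 arrays (columns, by genotype and replicate), as log2 signal minus the gene's mean over arrays; colour ends at 1 in either direction and the grey cells are the 2 marked spots. Most synthesis enzymes are red in DKO and blue in Gadd45a-KO replicates 2 and 3, WT replicate 2 stands apart from the other WT arrays, and Soat1 and Abcg1 show the opposite colours.

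In DKO against Gadd45a-KO fat, the comparison that adds Ing1 loss to Gadd45a loss, 8 of the 17 synthesis enzymes tested rose. Soat1, which esterifies cholesterol, and Abcg1, 1 of the 2 efflux genes, fell. Falls were no more frequent among members than among all tested. In all, 8 members rose and 2 fell, by 1.46-fold to 2.23-fold. The 10 members called are 37.0% of the 27, against 15% of all genes and probes tested. By direction, 29.6% of members rose against 6.49% of all, and 7.41% fell against 8.47% of all. In a fit kept to genes and probes well above background on all 12 arrays, as the 27 members were, 19.6% were called. These shares are a description, since the list was chosen with earlier results of these data known. All 8 that rose were synthesis enzymes, out of 17 tested. The log2 fold change was positive for 24 of 27 members and for all 17 synthesis enzymes. Its median was 0.47 over members and 0.68 over synthesis enzymes, against -0.03 over all genes and probes tested. All DKO arrays lay above all Gadd45a-KO arrays for 15 members (55.6%, against 16.5% of all tested) and below them for 2 (7.41%, against 20.8%). At an unadjusted limma p under 0.05 there were 17 members (63.0%, against 32.9% of all tested). With each array centred on its median in place of the 75th percentile, 12 members (and 13.5% of all tested) were called, and the share of higher calls among all calls was 59.0%, against 43.4% in the values as reported. The number of members called was 2 without DKO replicate 1, DKO replicate 2 or Gadd45a-KO replicate 3 (with 2.82%, 2.03% and 1.71% of all tested called), 3 without Gadd45a-KO replicate 2 (3.43% of all) and 15 without WT replicate 2 (21.3% of all). It was 0 with a block for the array column (0.00954% of all) and 0 without the 3 arrays highest in muscle transcripts (0.00318% of all).

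**Figure D2:**
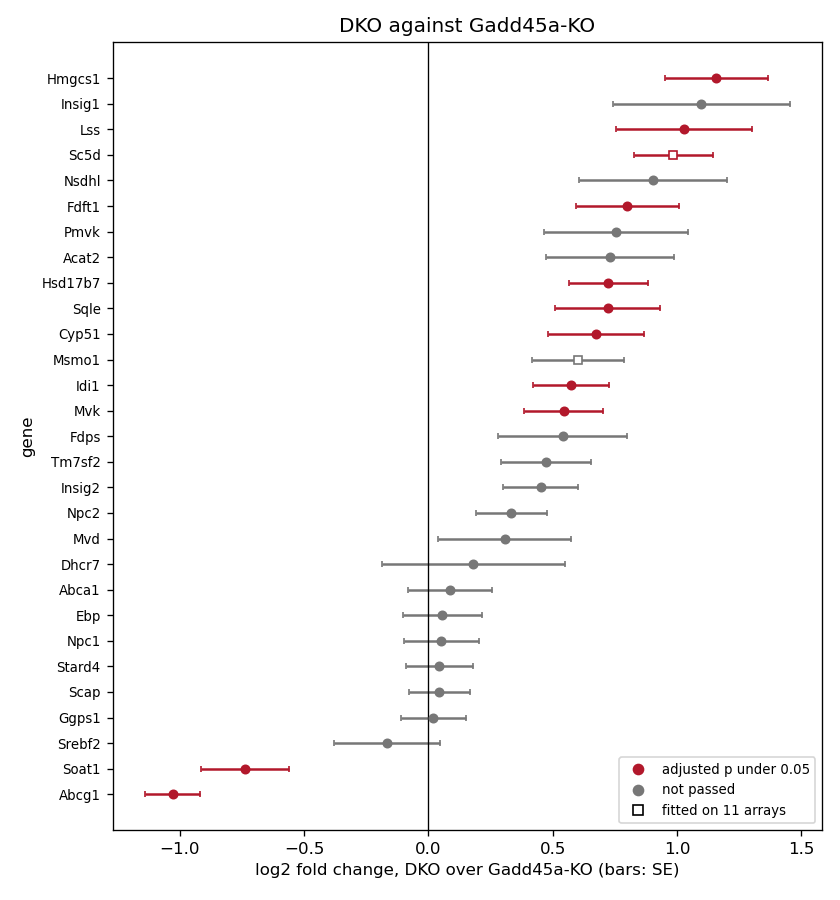
Log2 fold change of DKO over Gadd45a-KO for each of the 29 members, sorted by size, with bars for the standard error; red points have an adjusted p under 0.05 and open squares were fitted on 11 arrays. The fold changes run from -1.03 for Abcg1 to 1.16 for Hmgcs1, and only Abcg1, Soat1 and Srebf2 lie below 0.

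The early pathway runs from acetyl-CoA to farnesyl diphosphate, and 3 of its 8 enzymes rose in DKO against Gadd45a-KO. Hmgcs1, the cytosolic synthase that makes HMG-CoA, had 14.64, 14.68 and 14.26 in DKO, 13.76, 13.74 and 13.56 in Ing1-KO, 13.31, 13.44 and 13.36 in Gadd45a-KO, and 13.51, 14.19 and 13.21 in WT. Every DKO array lay above all 9 others. Its log2 fold change over Gadd45a-KO was 1.16 ± 0.21 (SE), a 2.23-fold difference with a limma adjusted p of 0.0115. Mvk, which phosphorylates mevalonate, had 13.04, 13.13 and 12.74 in DKO, 12.58, 12.68 and 12.71 in Ing1-KO, 12.69, 12.33 and 12.25 in Gadd45a-KO, and 12.42, 12.87 and 12.39 in WT. DKO and Gadd45a-KO did not overlap, with the nearest DKO array just above the highest Gadd45a-KO array. Over Gadd45a-KO the log2 fold change was 0.54 ± 0.16 (SE), with a limma adjusted p of 0.0422. A 2nd probe of Mvk gave 0.57 ± 0.21 (SE) and did not pass in a fit of every probe (limma adjusted p = 0.0799). Idi1, the isomerase that makes dimethylallyl diphosphate, had 12.22, 12.01 and 12.08 in DKO, 11.63, 11.74 and 11.99 in Ing1-KO, 11.68, 11.56 and 11.34 in Gadd45a-KO, and 11.61, 12.02 and 11.50 in WT. The DKO arrays lay above all Ing1-KO and Gadd45a-KO arrays, while WT replicate 2 lay within them. Its log2 fold change over Gadd45a-KO was 0.57 ± 0.15 (SE), with a limma adjusted p of 0.0316.

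The 5 early enzymes that did not pass had log2 fold changes of DKO over Gadd45a-KO between 0.02 and 0.75. Acat2, the cytosolic thiolase, had 10.86, 10.72 and 10.68 in DKO, 10.28, 10.52 and 10.94 in Ing1-KO, 10.27, 10.05 and 9.75 in Gadd45a-KO, and 10.38, 11.22 and 10.08 in WT. DKO lay above Gadd45a-KO on every array, but the log2 fold change of 0.73 ± 0.26 (SE) had a limma adjusted p of 0.0744. Pmvk, the next kinase after Mvk, had 14.96, 14.36 and 14.51 in DKO, 14.04, 14.14 and 14.41 in Ing1-KO, 14.28, 13.96 and 13.33 in Gadd45a-KO, and 13.97, 14.95 and 13.98 in WT. The DKO arrays lay just above those of Gadd45a-KO, WT replicate 2 was nearly as high as the highest of them, and the limma adjusted p was 0.0947. Mvd, the decarboxylase that follows, had 9.71, 9.31 and 9.96 in DKO, 8.80, 9.39 and 9.88 in Ing1-KO, 9.65, 9.34 and 9.07 in Gadd45a-KO, and 9.33, 9.91 and 9.53 in WT. Its 4 genotypes overlapped throughout. Fdps, which makes farnesyl diphosphate, had a log2 fold change of 0.54 ± 0.26 (SE) with a limma adjusted p of 0.17. Ggps1, which leads out of the sterol route to geranylgeranyl diphosphate, differed least, at 0.02 ± 0.13 (SE).

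From squalene to cholesterol, 5 of the 9 enzymes on 12 arrays rose in DKO against Gadd45a-KO, and the 4 others did not pass. Fdft1, squalene synthase, had 11.64, 11.78 and 11.57 in DKO, 10.89, 11.63 and 11.76 in Ing1-KO, 11.17, 10.83 and 10.60 in Gadd45a-KO, and 10.99, 11.22 and 11.01 in WT. The DKO arrays lay above all Gadd45a-KO and WT arrays and overlapped with Ing1-KO. Over Gadd45a-KO it differed by 0.80 ± 0.21 (SE), with a limma adjusted p of 0.0295. A 2nd, much dimmer probe of Fdft1 gave 0.53 ± 0.48 (SE) and did not pass in a fit of every probe (limma adjusted p = 0.471). Sqle, the epoxidase that is a rate-limiting step of the pathway, had 11.66, 11.64 and 11.45 in DKO, 10.85, 11.18 and 11.30 in Ing1-KO, 11.14, 10.76 and 10.68 in Gadd45a-KO, and 11.11, 11.71 and 10.80 in WT. WT replicate 2 was the highest of the 12 arrays. Between DKO and Gadd45a-KO it differed by 0.72 ± 0.21 on the log2 scale (SE), with a limma adjusted p of 0.0413. Lss, which closes the rings to lanosterol, had 9.70, 9.95 and 9.88 in DKO, 9.24, 9.36 and 9.83 in Ing1-KO, 9.40, 8.91 and 8.14 in Gadd45a-KO, and 8.97, 9.48 and 9.12 in WT. DKO lay above Gadd45a-KO and WT on every array, and Gadd45a-KO replicate 3 was far below the rest. Its log2 fold change over Gadd45a-KO was 1.03 ± 0.27 (SE), with a limma adjusted p of 0.0313. Its difference within slides was 0.30, 1.04 and 1.74 on slides 1, 2 and 3.

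Cyp51, the lanosterol demethylase, had 8.26, 8.43 and 8.71 in DKO, 7.74, 8.18 and 8.39 in Ing1-KO, 7.77, 7.98 and 7.63 in Gadd45a-KO, and 7.91, 7.66 and 8.05 in WT. All Gadd45a-KO and WT arrays lay below all DKO arrays. The log2 fold change over Gadd45a-KO was 0.68 ± 0.19 (SE), with a limma adjusted p of 0.0385. Hsd17b7, the ketoreductase of the demethylation steps, had 8.54, 8.76 and 8.35 in DKO, 7.93, 8.17 and 8.37 in Ing1-KO, 7.74, 7.94 and 7.80 in Gadd45a-KO, and 8.21, 8.42 and 8.09 in WT. Gadd45a-KO lay below both DKO and WT on every array. The log2 fold change over Gadd45a-KO was 0.72 ± 0.16 (SE), with a limma adjusted p of 0.019, and a 2nd probe of the gene gave 0.85. Sc5d, the desaturase of a late step, had 13.31, 13.22 and 13.07 in DKO, 12.46 and 12.67 in Ing1-KO, 12.41, 12.36 and 11.87 in Gadd45a-KO, and 12.51, 12.87 and 12.57 in WT. Every DKO array lay above all measured arrays of the other genotypes. On 11 arrays its log2 fold change over Gadd45a-KO was 0.99 ± 0.16 (SE), with a limma adjusted p of 0.00992.

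Msmo1, the methyl sterol oxidase, differed by 0.60 ± 0.18 (SE) between DKO and Gadd45a-KO on 11 arrays, with a limma adjusted p of 0.0507. Nsdhl, the dehydrogenase that works between Msmo1 and Hsd17b7, differed by 0.90 ± 0.30 (SE), with a limma adjusted p of 0.0597. Its lowest array was Gadd45a-KO replicate 3, at 8.96, against 10.28 and 10.14 in the other 2 arrays of that genotype. Tm7sf2, a sterol reductase, had 11.60, 11.37 and 11.64 in DKO, 11.52, 11.37 and 11.70 in Ing1-KO, 11.36, 11.22 and 10.62 in Gadd45a-KO, and 11.18, 11.46 and 11.18 in WT. DKO and Ing1-KO overlapped there, and the log2 fold change of DKO over Gadd45a-KO, 0.47 ± 0.18 (SE), had a limma adjusted p of 0.0925. Dhcr7, the reductase that makes cholesterol from 7-dehydrocholesterol, and Ebp, the sterol isomerase, differed by 0.18 ± 0.37 and 0.06 ± 0.16 (SE). Dhcr7 was at 10.25 in WT replicate 2, against 8.62 and 8.70 in the other WT arrays.

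**Figure D3:**
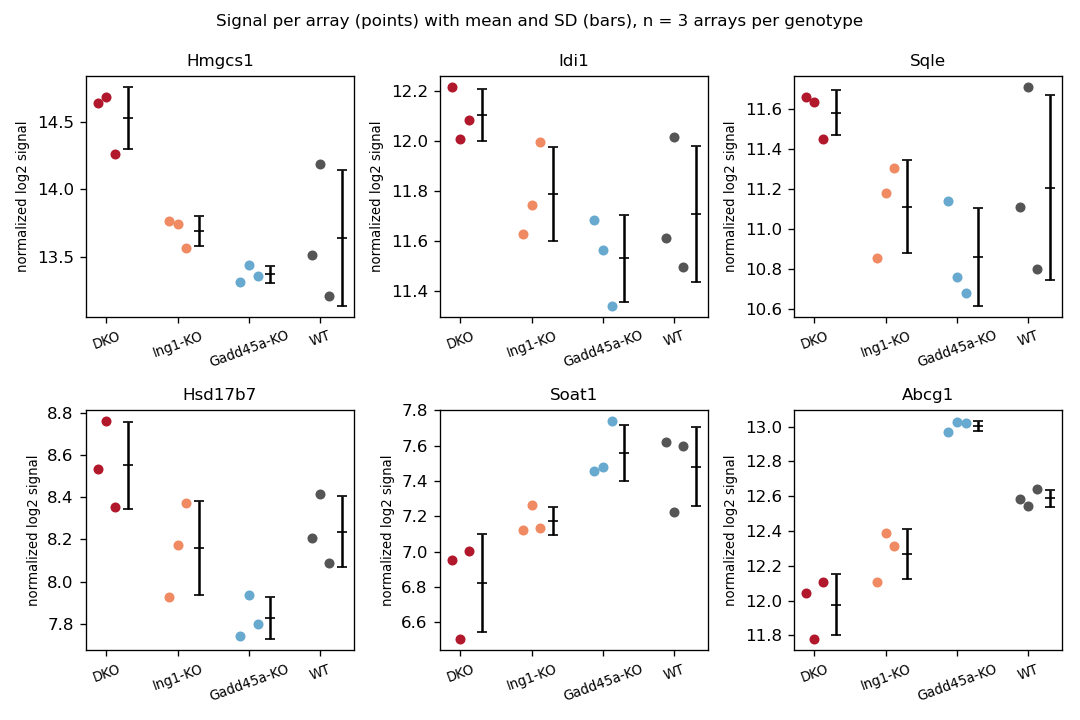
Normalized log2 signal on each array (points) with the mean and SD (bars, n = 3 arrays per genotype) for 4 synthesis enzymes and for Soat1 and Abcg1; each panel has its own axis, which does not start at 0. DKO is highest in mean for Hmgcs1, Idi1, Sqle and Hsd17b7 and lowest for Soat1 and Abcg1, and WT replicate 2 lies above the other WT arrays in the 4 enzymes.

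The sensors of the pathway were positive in 3 of 4 cases in DKO against Gadd45a-KO, and 0 of 4 passed (2 at an unadjusted limma p under 0.05). Insig1, which retains SCAP and is itself a target of SREBP-2, had 11.77, 11.47 and 11.55 in DKO, 10.53, 11.25 and 11.52 in Ing1-KO, 11.15, 10.79 and 9.56 in Gadd45a-KO, and 10.97, 11.59 and 11.28 in WT. DKO lay above Gadd45a-KO on every array, and the 3 arrays of Gadd45a-KO spread the most. The log2 fold change was 1.10 ± 0.36 (SE), with a limma adjusted p of 0.0564. Insig2, its paralogue, had 11.97, 11.82 and 11.55 in DKO, 11.86, 11.47 and 11.60 in Ing1-KO, 11.54, 11.19 and 11.26 in Gadd45a-KO, and 11.53, 11.63 and 11.30 in WT. DKO exceeded Gadd45a-KO on every array by a narrow margin, with a log2 fold change of 0.45 ± 0.15 (SE) and a limma adjusted p of 0.0619. Scap, the carrier of SREBP-2, had 12.98, 12.86 and 12.92 in DKO, 13.00, 12.95 and 12.89 in Ing1-KO, 12.90, 12.90 and 12.83 in Gadd45a-KO, and 12.75, 12.37 and 12.86 in WT. Its 3 knockout groups lay within a narrow range, and WT replicate 2 was the lowest array. Srebf2, which encodes SREBP-2, averaged 9.40 ± 0.38 in DKO and 9.56 ± 0.04 in Gadd45a-KO (SD, n = 3 each). Its 2 probes gave log2 fold changes of -0.16 and -0.61, and neither passed.

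Soat1 and Abcg1 were the members that fell. Soat1, which esterifies cholesterol for storage, had 6.95, 6.50 and 7.01 in DKO, 7.12, 7.27 and 7.14 in Ing1-KO, 7.46, 7.48 and 7.74 in Gadd45a-KO, and 7.62, 7.22 and 7.60 in WT. Every DKO array lay below all 9 others. Its log2 fold change over Gadd45a-KO was -0.74 ± 0.18 (SE), with a limma adjusted p of 0.0237. Abcg1, the transporter that passes cholesterol to high-density lipoprotein and a known LXR target, had 12.04, 11.78 and 12.11 in DKO, 12.11, 12.39 and 12.31 in Ing1-KO, 12.97, 13.02 and 13.02 in Gadd45a-KO, and 12.58, 12.54 and 12.64 in WT. Every DKO array lay below all 9 others, with the lowest Ing1-KO array next to the highest DKO array, and every Gadd45a-KO array lay above all others. Its log2 fold change over Gadd45a-KO was -1.03 ± 0.11 (SE), with a limma adjusted p of 0.00311, the lowest among the members. The differences within slides were -0.93, -1.25 and -0.91 for Abcg1 and -0.50, -0.97 and -0.74 for Soat1.

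Abca1, the other efflux transporter and also a known LXR target, had 12.41, 12.54 and 12.36 in DKO, 12.91, 12.23 and 12.19 in Ing1-KO, 12.26, 12.47 and 12.32 in Gadd45a-KO, and 12.39, 12.15 and 12.33 in WT. Its genotypes overlapped, and the log2 fold change of DKO over Gadd45a-KO was 0.09 ± 0.17 (SE), with a limma adjusted p of 0.76. Npc2, the soluble lysosomal protein that hands cholesterol to NPC1, had 14.70, 14.93 and 14.67 in DKO, 14.68, 14.70 and 14.78 in Ing1-KO, 14.58, 14.40 and 14.33 in Gadd45a-KO, and 14.73, 14.87 and 14.33 in WT. Its DKO arrays lay above those of Gadd45a-KO, with a log2 fold change of 0.33 ± 0.14 (SE) and a limma adjusted p of 0.128. Npc1, which moves cholesterol out of the lysosome, had 8.76, 9.01 and 8.85 in DKO, 8.81, 8.97 and 9.08 in Ing1-KO, 8.94, 8.89 and 8.64 in Gadd45a-KO, and 8.85, 8.41 and 8.83 in WT. Stard4, a soluble sterol carrier, and Npc1 differed by 0.04 ± 0.13 and 0.05 ± 0.15 (SE) between DKO and Gadd45a-KO.

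All 10 members called in DKO against Gadd45a-KO had the same direction on each of the 3 slides. This had to follow, since their DKO and Gadd45a-KO arrays do not overlap, and it adds no separate support. The median difference over the 29 members was 0.35, 0.44 and 0.58 on slides 1, 2 and 3, with 24, 23 and 24 of 29 positive. The direction of these 10 was also the same under each of the 27 settings tried, the reported one included. Under many of these settings it could not turn. Some reuse the same DKO and Gadd45a-KO values, and groups that do not overlap keep their direction with an array left out. Abcg1 and Hmgcs1 passed in 25 of the 27, Hsd17b7 in 21, Fdft1, Lss and Soat1 in 20, Idi1 in 19, Cyp51 and Sqle in 14, and Mvk in 13.

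Markers of cell types moved in the same comparison, in which 6.49% of all tested rose and 8.47% fell. Of 9 white adipocyte markers, 5 rose in DKO against Gadd45a-KO (Lep, Lpl, Plin1, Pparg and Retn), with a median log2 fold change of 0.73 over the 9. Their mean deviation lay between 0.02 and 0.63 in DKO arrays, against -0.42 to -0.19 in Gadd45a-KO arrays. Of 9 macrophage markers tested out of 10 (8 above background on all arrays), 4 fell (Csf1r, Cx3cr1, Lyz2 and C1qa), with a median of -0.49. Their mean deviation lay between -0.29 and -0.12 in DKO arrays, against 0.28 to 0.36 in Gadd45a-KO arrays. Of the other lists, 5 of 6 T cell, 5 of 5 neutrophil and 5 of 6 proliferation markers fell, 1 of 2 mesothelial markers rose, and 0 of 7 skeletal muscle and 0 of 3 epididymis and testis markers passed. Only 2 of 5 listed mesothelial and 3 of 8 listed epididymis and testis markers could be tested. Those above background on all arrays were 3 of 5 neutrophil, 4 of 7 skeletal muscle and 1 of 3 epididymis and testis markers. The part of these markers in the changes of the cholesterol genes was not tested. In whole tissue, fewer cells of a type and less RNA per cell cannot be told apart.

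**Figure D4:**
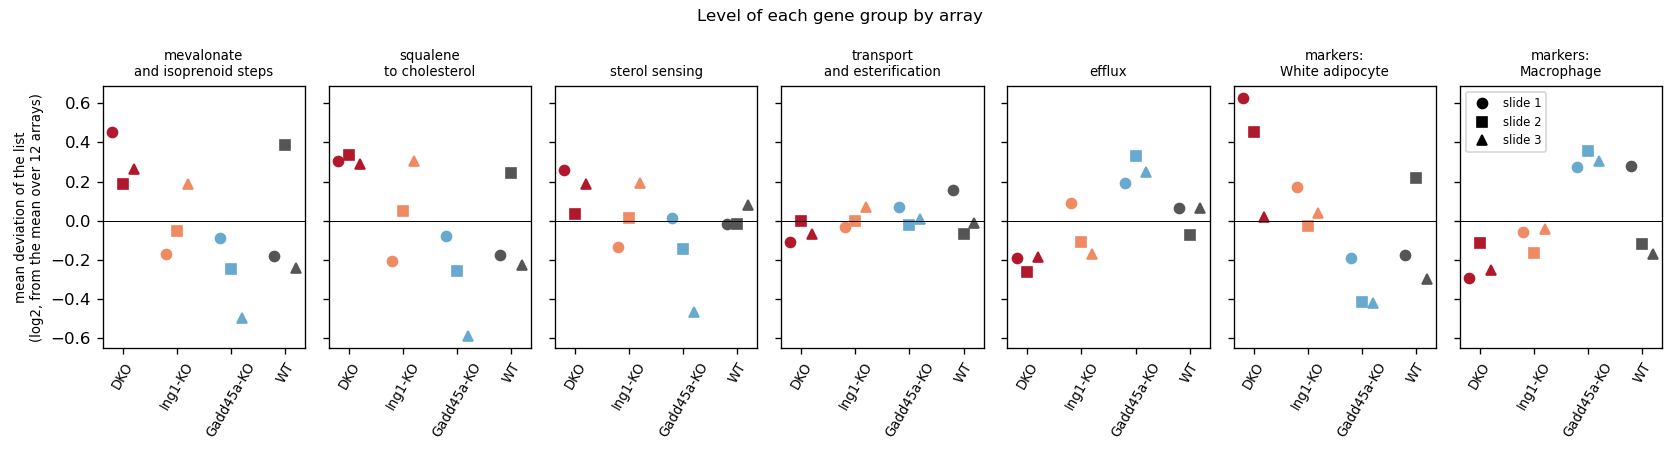
Mean deviation from the 12-array mean (log2) of each role group of members and of the white adipocyte and macrophage markers, with 1 point per array, genotypes in columns and slides as symbols. Mevalonate and squalene steps and the adipocyte markers lie above 0 in all 3 DKO arrays and below 0 in all 3 Gadd45a-KO arrays. Macrophage markers and the efflux mean lie the other way round. That efflux mean covers 2 genes, of which Abcg1 fell and Abca1 overlapped between the genotypes.

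Against WT, 0 of 27 members passed in any knockout. In DKO against WT the log2 fold change was positive for 23 members and for 16 of 17 synthesis enzymes, with a median of 0.26 over members against -0.04 over all tested. At an unadjusted limma p under 0.05 there were 8 members, 6 higher and 2 lower, or 29.6% of members against 23% of all tested, and 0.162% of all tested passed after adjustment. All DKO arrays lay above all WT arrays for 5 members (18.5%, against 9.66% of all tested) and below them for 2 (7.41%, against 12.6%). The smallest limma adjusted p values were those of Abcg1 (-0.61 ± 0.11 SE, adjusted p = 0.0596), Hmgcs1 (0.89 ± 0.21 SE, adjusted p = 0.0723) and Soat1 (-0.66 ± 0.18 SE, adjusted p = 0.0849). Cyp51 and Fdft1 each differed by 0.59, with SE of 0.19 and 0.21. Sc5d differed by 0.55 ± 0.16 (SE) on 11 arrays, with a limma adjusted p of 0.0984. Slide 2, which holds WT replicate 2, differed from the others: the median difference of DKO from WT over the members measured was 0.06 there, and 0.40 and 0.35 on slides 1 and 3. On slide 2, 10 of 19 synthesis enzymes were higher in DKO than in WT and 9 lower, against 18 of 18 and 18 of 19 higher on slides 1 and 3, with differences on slide 2 between -1.16 for Dhcr7 and 0.77 for Cyp51. Without DKO replicate 3, 3 members passed (11.1%, against 10.5% of all tested), as did 3 without WT replicate 2 (3.79% of all), 1 without Gadd45a-KO replicate 3 (0.744% of all) and 2 with the slide as a block (2.08% of all).

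In Gadd45a-KO against WT the median over members was -0.21, against -0.00 over all tested, with 20 of 27 members and 15 of 17 synthesis enzymes negative. At an unadjusted limma p under 0.05 there were 3 members (11.1%, against 2.35% of all tested): Abcg1 at 0.42 ± 0.11, Hsd17b7 at -0.41 ± 0.16 and Insig1 at -0.78 ± 0.36 (SE). Their limma adjusted p was 1.00 throughout, as for every member, and 0% of all tested passed. Within slides the median difference of Gadd45a-KO from WT was 0.08, -0.45 and -0.16 on slides 1, 2 and 3, so that the direction was not shared by all slides. In Ing1-KO against WT the median over members was 0.05, with 17 of 27 positive, and 2 members had an unadjusted limma p under 0.05 (7.41%, against 8.6% of all tested): Abcg1 at -0.32 ± 0.11 and Scap at 0.28 ± 0.12 (SE). The lowest limma adjusted p was 0.553, and 0.00318% of all tested passed. The median difference within slides was -0.04, -0.16 and 0.34.

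**Figure D5:**
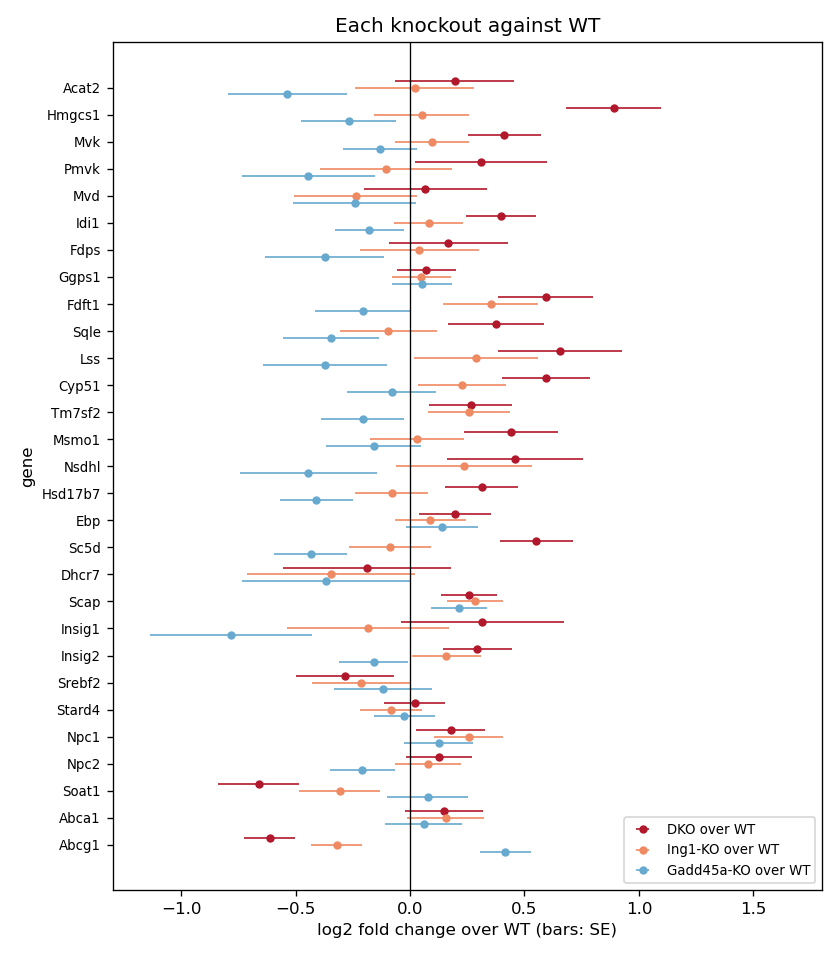
Log2 fold change over WT of each of the 29 members in DKO, Ing1-KO and Gadd45a-KO, with bars for the standard error; the 3 comparisons share the WT arrays, and 0 members passed in any of them. DKO lies to the right of Gadd45a-KO in most synthesis enzymes and to its left in Soat1 and Abcg1, with Ing1-KO mostly between them.

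In DKO against Ing1-KO, the comparison that adds Gadd45a loss to Ing1 loss, 0 of 27 members passed and 0.00318% of all tested did. All 17 synthesis enzymes were positive, with a median of 0.30 over them and 0.16 over members, against 0.01 over all tested. At an unadjusted limma p under 0.05 there were 4 members (14.8%, against 3.51% of all tested): Hmgcs1 at 0.84 ± 0.21, Sqle at 0.47 ± 0.21, Hsd17b7 at 0.39 ± 0.16 and Abcg1 at -0.29 ± 0.11 (SE). The lowest limma adjusted p among members was 0.948. The median difference within slides was 0.46, 0.23 and -0.02, with no shift towards DKO on slide 3. The interaction compares DKO less Gadd45a-KO with Ing1-KO less WT, and there 0 members passed and 0% of all tested did. At an unadjusted limma p under 0.05 there were 6 members (22.2%, against 5.93% of all tested). They were Abcg1 at -0.71 ± 0.16, Hmgcs1 at 1.11 ± 0.29, Hsd17b7 at 0.80 ± 0.23, Sqle at 0.82 ± 0.30, Insig1 at 1.28 ± 0.50 and Idi1 at 0.49 ± 0.22 (SE), and their limma adjusted p was 0.728.

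The order of the genotype means was shared by many members. DKO was highest for 18 of the 19 synthesis enzymes, Msmo1 and Sc5d included, and Gadd45a-KO was lowest for 17, with both true of 16. The exception at the top was Dhcr7, highest in WT, and the exceptions at the bottom were Ggps1 and Ebp, lowest in WT. How often this order occurs among all genes tested was not counted. The enzymes were read on the same arrays, so these counts are a description and not separate observations. Abcg1 and Soat1 had the order Gadd45a-KO, WT, Ing1-KO and DKO from high to low. For Soat1 the means of Gadd45a-KO and WT, 7.56 ± 0.16 and 7.48 ± 0.22 (SD, n = 3 each), did not differ beyond their spread, whereas for Abcg1 they were 13.01 ± 0.03 and 12.59 ± 0.05 (SD, n = 3 each), with no overlap.

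A further 37 genes of the same biology were measured, and in DKO against Gadd45a-KO 5 rose (13.5%, against 6.49% of all tested), 4 fell (10.8%, against 8.47% of all tested) and 28 did not pass. Nceh1, a hydrolase of cholesteryl esters, had a log2 fold change of -1.18 ± 0.15 (SE, limma adjusted p = 0.00532). Soat2, the paralogue of Soat1, had -1.24 ± 0.26 (SE, limma adjusted p = 0.0173). Ch25h, which makes 25-hydroxycholesterol, and Cyp7b1, which hydroxylates it further, had -1.56 ± 0.26 and -0.84 ± 0.20 (SE). Those that rose were Cav1, the caveolar protein (0.87 ± 0.25 SE), Vldlr, a lipoprotein receptor (0.72 ± 0.21 SE), Pdss2, of coenzyme Q synthesis (0.60 ± 0.13 SE), Fnta, a farnesyltransferase subunit (0.50 ± 0.11 SE), and Erlin2, which takes part in the sterol-regulated degradation of pathway proteins (0.44 ± 0.12 SE). The median over the 37 was 0.09. In each of the other comparisons and the interaction 0 of 37 passed, and at an unadjusted limma p under 0.05 there were 13 in DKO (35.1%, against 23% of all tested), 1 in Ing1-KO (2.70%, against 8.6%) and 3 in Gadd45a-KO (8.11%, against 2.35%), each against WT. There were 1 in DKO against Ing1-KO (2.70%, against 3.51%) and 3 in the interaction (8.11%, against 5.93%). Nceh1 had the lowest p of the 37 in DKO and in Ing1-KO against WT, at -0.76 and -0.54. In Gadd45a-KO against WT, Cyp7b1, Ch25h and Nceh1 had the lowest p, at 0.60, 0.78 and 0.42.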

How the data were processed

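Spot intensity was measured with Feature Extraction 10.7.3.1 per the file headers, and its processed signal was background-subtracted and not scaled between arrays. The authors' deposited table is in log2 units, and limma 3.26.9 is named per the submitters' processing notes; it was used as an alternative. Marked spots were left out, log2 processed signals of a probe averaged, and arrays shifted to a common 75th percentile. A probe was kept if it stood well above background on 3 or more of the 12 arrays, and the brightest one stood for its gene. Genes were named through RefSeq accessions (27509 of 55681 probes), which left 31453 genes or unnamed probes.

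limma 3.58.1 (R 4.3.3) fitted 4 genotype means on all 12 arrays, leaving 8 residual degrees of freedom, with trend and robust moderation. Tests are two-sided, with Benjamini-Hochberg adjustment over all tested and a threshold of 0.05. The fit was run on simulated arrays with known changes and independent noise. These held no effect of slide, array column or tissue make-up, so they do not bear on such effects. The number of arrays limits the precision. Alternatives were quantile and median normalization, normexp with an offset of 50, the authors' values, 2 other filters, every probe, plain empirical Bayes, only the arrays compared, a block for the slide, the array row or the array column, and each array left out. Per-array values are given for members past the threshold and for the 2 members of each role group with the smallest p against WT, and every member may be named. Of the 37 other genes, those past the threshold and those with the smallest p against WT are named. Members and lists were chosen with earlier results of these data known.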

Additional observations from a re-analysis of the deposited data

How the results depend on the processing

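Of 27 members, 10 passed in DKO against Gadd45a-KO, and this count was 0 with a block for the array column (3 genes or probes passed in all), 0 leaving out the 3 arrays highest in skeletal muscle transcripts (added after the data were seen), 2 with only the arrays compared (1.6% of all tested called), 6 with plain empirical Bayes (10.4% of all) and 17 at an unadjusted p under 0.05 (32.9% of all). It ranged from 2 to 15 with an array left out (1.71% to 22.5% of all), and lay between 7 and 12 under the other alternatives. In DKO against WT, 0 passed, against 2 with the replicate block (2.08% of all), 1 with the authors' values (0.379% of all), 8 unadjusted (23% of all), and 0 to 3 with an array left out (0.00318% to 10.5% of all). At an unadjusted p under 0.05, 4 passed in DKO against Ing1-KO, 6 in the interaction, and 2 in Ing1-KO and 3 in Gadd45a-KO, each against WT, where 0 passed after adjustment under every alternative run.

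The reported fit did not pair the arrays by replicate number (slide). The correlation of same-numbered deviations ranged from -0.28 to 0.42. It was positive on every slide in DKO and in Ing1-KO, each against WT, and mixed in sign elsewhere, so it does not settle whether slides pair the arrays. With the slide as a replicate block, 11 members passed in DKO against Gadd45a-KO (19.3% of all tested). With an array left out the median over members ranged from 0.40 to 0.62 in DKO against Gadd45a-KO, 0.17 to 0.36 in DKO against WT, 0.11 to 0.34 in DKO against Ing1-KO, 0.23 to 0.59 in the interaction, and, against WT, -0.08 to 0.17 in Ing1-KO and -0.26 to -0.07 in Gadd45a-KO. The signs that turned belong to values that had not passed. In Gadd45a-KO against WT, Abca1 was -0.02 with the authors' values, and with an array left out it ranged from -0.01 to 0.11 and Npc1 from -0.02 to 0.22. For Ing1-KO over WT, without the muscle arrays Abca1 was -0.08 and Mvd 0.04, with an array left out they ranged from -0.08 to 0.28 and from -0.50 to 0.04, and Fdft1 was -0.10 over every probe, against 0.35 with its brightest probe. The cause was not tested. Normexp moved the median of all genes tested to -0.10 in DKO and -0.13 in Ing1-KO, each against WT, and to 0.12 in the interaction. Median centring moved the share of higher calls among all calls in DKO against WT to 71.4%, against 51.0%.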
